A study of Rattus norvegicus with 6 samples.

Results

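The collagen genes of NRK-52E cells, an established epithelial line from the rat kidney, were compared between cells treated with streptozotocin (STZ) and vehicle-treated cells. They were taken as every row of the count table whose symbol has the form of a collagen chain (Col, a type number, the letter a and a chain number), which gave 39 of 18930 rows. RNA was sequenced from 3 samples of wild-type cells given vehicle (Control) and from 3 samples of wild-type cells kept in 10 mM of STZ, a DNA-alkylating glucose analog, for 24 h. All samples came from the same line, and whether the 3 samples of a group were separate cultures is not given in the sources used here, so p-values measure the spread between these samples, which may be technical. The libraries held 10430924 to 15191349 reads assigned to genes, and samples of a group differed from each other by more than sampling noise.

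Collagens are secreted or membrane-bound proteins whose chains wind into triple helices. Fibrillar collagens form the tensile fibrils of the interstitium, fibril-associated collagens decorate and space those fibrils, and collagen IV forms the sheet-like network of the basement membrane under the tubular epithelium. In the kidney, deposition of fibrillar collagens is the hallmark of interstitial fibrosis, while mutations in collagen IV chains cause hereditary nephropathies such as Alport syndrome.

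STZ was followed by lower RNA of Col3a1, Col12a1, Col8a2 and Col16a1 and by slightly higher RNA of Col5a1 and Col14a1, while the abundant collagen IV chains and Col5a2 did not pass the test. Of the 39 collagens, 18 had enough reads to be tested (the filter asked for about 10 reads in at least 3 libraries), and 21 did not. Higher or lower means here an adjusted p-value under 0.05 by edgeR's quasi-likelihood test over all 11870 genes tested. By that rule 9 of the 18 collagens tested changed, 6 lower and 3 higher. Among all genes tested 50.9% were called, 25.1% lower and 25.9% higher, so the share of collagens called lay near the background. With an absolute log2 fold change over 1 required as well, 3 of the 18 were called, against 3.37% of all genes tested. Of these, Col3a1 and Col12a1 were lower, against 1.11% of all genes tested. Col12a1 lies at the threshold with -1.01, and fell short of it without Control replicate 1 (-0.96) or STZ replicate 3 (-0.97). Col27a1 was the only one higher, against 2.26%, but it passed the filter through its STZ libraries alone and so had to differ. It is therefore not read as an excess over these shares. Col3a1, Col12a1, Col8a2, Col18a1 and Col16a1, 5 of the 18, were lower with a log2 fold change below -0.5, against 5.57% of all genes tested. This cut was not among the thresholds set for the tests, and Col16a1 lies close to it at -0.54. Col18a1 also lost its call in some refits. The comparison is therefore descriptive. With at least 10 reads asked in every library, which leaves Col27a1 out, 8 of 15 collagens had an adjusted p-value under 0.05, 2 higher and 6 lower. Among all genes that was 5892 of 11297. The median log2 fold change was -0.08 over the 18 collagens and -0.01 over all genes tested, and the median absolute log2 fold change was 0.21 and 0.19. These are bulk samples, in which fewer cells of a kind and less RNA per cell cannot be told apart.

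**Figure D1:**
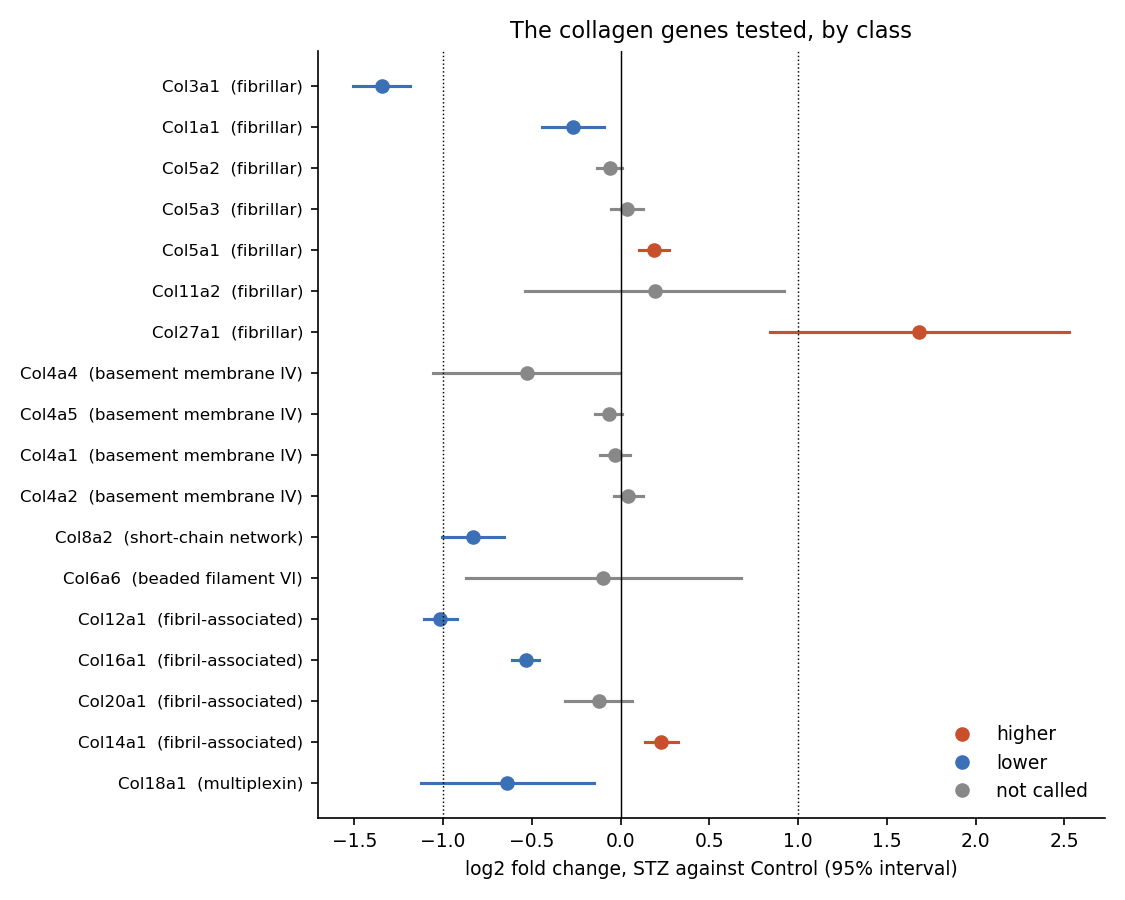
The log2 fold change (STZ against Control) of each of the 18 collagens tested, grouped by class, with its 95% interval; the dotted lines mark an absolute log2 fold change of 1. Col3a1, Col12a1 and Col8a2 lie farthest to the left, Col27a1 lies farthest to the right with a wide interval, and Col4a1, Col4a2, Col4a5, Col5a2 and Col5a3 sit close to 0 with narrow intervals.

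The treatment and the cell type were checked first. Cdkn1a, the p53 target that encodes the cell cycle inhibitor p21, had 228 to 236 CPM (read counts scaled to a common library size with edgeR's TMM factors) in the Control libraries and 1271 to 1312 CPM in the STZ libraries. Of the epithelial markers, Krt8, a keratin of simple epithelia, had 1102 to 1178 CPM in Control and 1597 to 1613 CPM in STZ, whereas its usual partner Krt18 had 0 to 3 reads per library. Cdh1 (E-cadherin) went the other way, with 2.58 ± 0.524 CPM in Control and 1.64 ± 0.553 CPM in STZ (SD, n = 3 each), overlapping groups and a log2 fold change of -0.69 (adjusted p = 0.0296 by edgeR's quasi-likelihood test), so that 1 of the 2 epithelial markers tested was higher and 1 lower. The defining proximal tubule markers Lrp2, Cubn, Slc34a1 and Slc5a2 had at most 10 reads in any library. Of that list only Aqp1, a water channel, was tested, and it was lower with a log2 fold change of -1.25 (adjusted p = 9.4e-09 by the same edgeR test). Of the 7 fibroblast or mesenchymal markers in the table, 4 were tested, 3 lower and 1 higher, and the summed level of the list was 2016 to 2230 CPM in Control and 1958 to 1998 CPM in STZ. Vim, an intermediate filament gene that cultured epithelial cells often express too, made up most of that sum, and Pdgfra, Thy1 and Lum had at most 4 reads in any library. The endothelial markers Pecam1 and Cdh5 and the leukocyte marker Ptprc had at most 2 reads in any library. Cd68, a lysosomal protein gene of macrophages and the other leukocyte marker, had 7 to 23 reads in Control and 21 to 29 in STZ, and did not pass the test (log2 fold change 0.40, adjusted p = 0.28 by the same test). The mesenchymal sum was lower in STZ and its part in the falls of single collagens was not tested.

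Fibrillar collagens were led by the largest fall among all collagens tested. Col3a1, which encodes the chain of collagen III, a fibril component of extensible tissues and early scars, had 60.1, 54.4 and 47.2 CPM in Control replicates 1, 2 and 3. In STZ replicates 1, 2 and 3 it had 20.7, 23.8 and 19.3 CPM. The highest STZ library thus lay well under the lowest Control library, and the log2 fold change was -1.35 (0.08 standard error, SE; adjusted p = 2.5e-18 by edgeR's quasi-likelihood test), a fall to 0.394 of the Control level. Col3a1 was the only collagen that also passed edgeR's test against an absolute log2 fold change of 1.

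Col1a1, the major chain of collagen I, had 29.9, 28.6 and 32.3 CPM in Control and 28.8, 26.7 and 20.6 CPM in STZ. The groups overlapped, and STZ replicate 3 lay lowest. Its log2 fold change was -0.27 (adjusted p = 0.0092 by the same edgeR test), but without STZ replicate 3 it was -0.13 (adjusted p = 0.23) and without Control replicate 3 it was -0.22 (adjusted p = 0.057). In the GRCr8 annotation of RefSeq the span of Col1a1 overlaps that of Sgca, which had 0 to 3 reads per Control library and 9 to 18 per STZ library. How strand was handled in counting is not given in the sources used here, so reads of the pair may not be fully separated.

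Collagen V limits the diameter of collagen I fibrils and had the most reads of the fibrillar class. Its chains did not move together. Col5a1 had 299, 283 and 316 CPM in Control and 338, 360 and 327 CPM in STZ. All STZ libraries lay above all Control libraries, with a log2 fold change of 0.19 (SE 0.04, adjusted p = 1.7e-04 by edgeR's quasi-likelihood test). Col5a2 had 1219, 1180 and 1169 CPM in Control and 1141, 1176 and 1100 CPM in STZ, with overlapping groups. Its log2 fold change was -0.06 (95% interval -0.13 to 0.01), which did not pass the test with TMM scaling (adjusted p = 0.14) and did so with library size only (adjusted p = 0.0195). Col5a3 had 140 to 146 CPM in Control and 138 to 154 CPM in STZ, a log2 fold change of 0.04 (95% interval -0.05 to 0.13).

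The remaining fibrillar members had few reads. Col27a1, which encodes a fibrillar collagen of cartilage, had 4, 2 and 9 reads in Control and 16, 22 and 19 reads in STZ. Its log2 fold change was 1.68 (SE 0.42, adjusted p = 7.8e-04 by edgeR's quasi-likelihood test), between 1.34 and 2.31 when any one library was left out. Its groups did not overlap. Because Col27a1 passed the filter through its STZ libraries alone, neither the p-value, the range nor the separation of its groups counts as support for a rise. Col11a2 had 7 to 17 reads per library, with a log2 fold change of 0.19 and a wide 95% interval of -0.54 to 0.92. Col1a2 and Col2a1 had at most 2 reads in any library and were not tested.

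**Figure D2:**
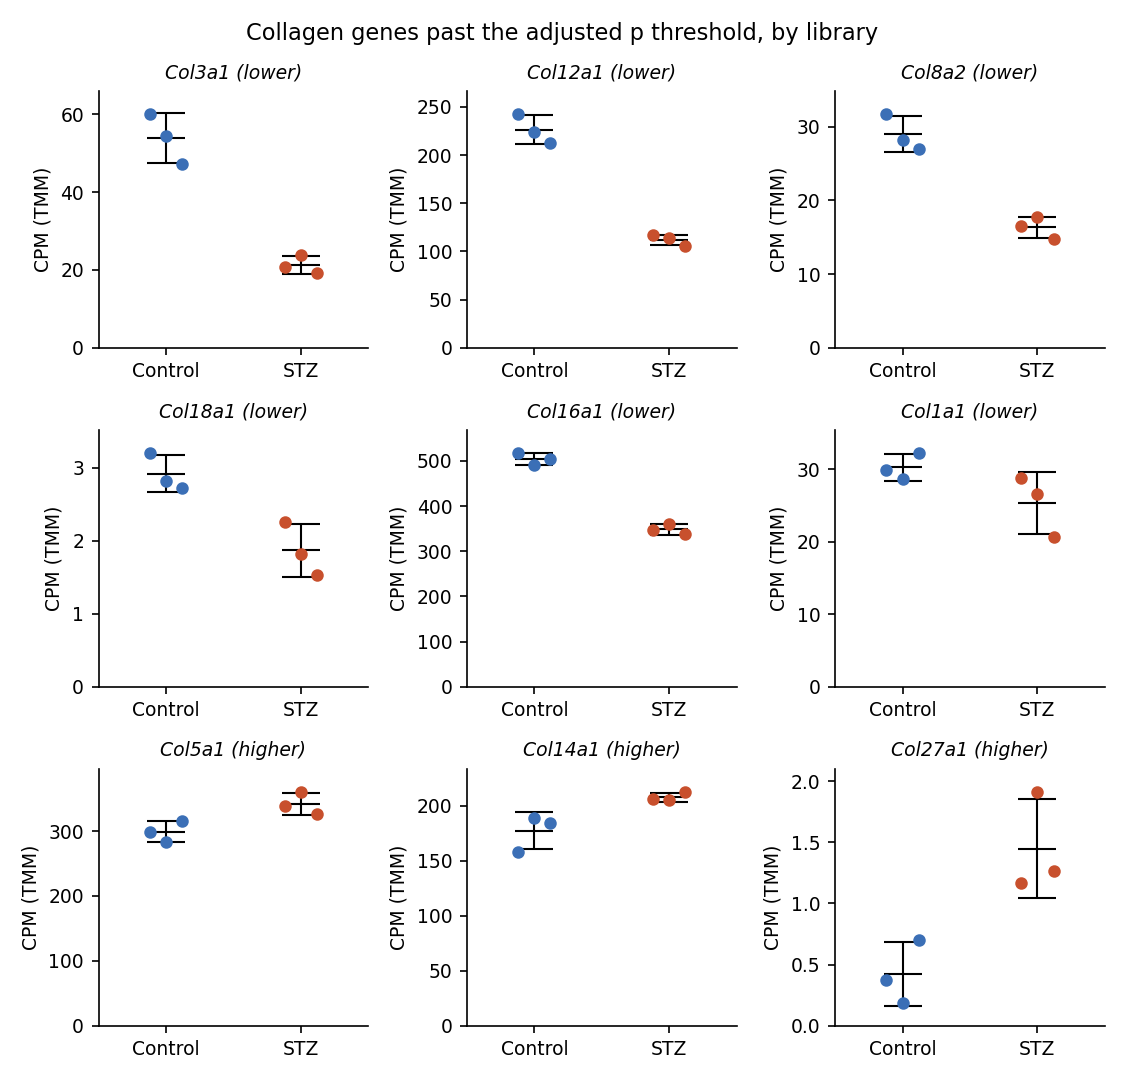
CPM (TMM scaling) of the 9 collagens past the adjusted p-value threshold in each of the 3 Control and 3 STZ libraries, with the mean and SD as bars; every axis starts at 0. The groups are separate in every panel except Col1a1, and Col18a1 and Col27a1 lie at a few CPM or less. Only collagens already called are shown, so this separation is no further support. Of the 18 collagens tested, 9 had groups that did not overlap, against 56.3% of all genes tested.

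Fibril-associated collagens changed in both directions. Col12a1, which encodes a large collagen that links fibrils to the surrounding matrix, had 243, 224 and 212 CPM in Control and 117, 113 and 106 CPM in STZ. Every STZ library was under every Control library, and the log2 fold change was -1.01 (SE 0.05, adjusted p = 5.8e-22 by edgeR's quasi-likelihood test), which is a fall to 0.495 of the Control level. The value was between -1.06 and -0.96 with any one library left out, so Col12a1 lies at the fold-change threshold. Col16a1, whose product adapts fibrils to other matrix networks, had 518, 491 and 504 CPM in Control and 347, 360 and 337 CPM in STZ. The groups were again separate, with a log2 fold change of -0.54 (SE 0.04, adjusted p = 5.6e-16 by the same test).

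Col14a1, a close relative of Col12a1 that also coats fibrils, went the other way. It had 158, 189 and 184 CPM in Control and 206, 205 and 213 CPM in STZ. The groups did not overlap, although Control replicate 1 lay below the other Control libraries, and the log2 fold change was 0.23 (SE 0.05, adjusted p = 6.4e-05 by edgeR's quasi-likelihood test). Without Control replicate 1 it was 0.15, still past the test. Col20a1 had 18.3 to 24.5 CPM in Control and 18.3 to 21.8 CPM in STZ, a log2 fold change of -0.12 (95% interval -0.31 to 0.07) that passed the test only without Control replicate 3 (-0.24, adjusted p = 0.032). Its span overlaps that of Chrna4 in GRCr8, which had at most 4 reads in any library. Col9a1, Col9a2, Col9a3, Col19a1 and Col22a1 had at most 8 reads in any library. Col22a1 had 0, 0 and 2 reads in Control and 6, 5 and 5 in STZ, and was the one untested collagen called when no filter was used (adjusted p = 0.0296).

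Of the 4 chains of basement membrane collagen IV tested, 0 passed edgeR's quasi-likelihood test. These are too few to set against the 50.9% of all genes tested. At an unadjusted p under 0.05 the count was 1 (Col4a4), and with DESeq2, limma-voom and edgeR's likelihood ratio and exact tests it was 0 after adjustment. In other refits Col4a5 passed, as given below, and so did Col4a2 without Control replicate 3 (0.10, adjusted p = 0.039 by edgeR). Col4a1 and Col4a2 encode the chains of the ubiquitous collagen IV network, while Col4a3, Col4a4, Col4a5 and Col4a6 encode the chains of the networks found in the glomerulus and in some tubules. Col4a1 had 242, 240 and 262 CPM in Control and 241, 254 and 235 CPM in STZ, and its log2 fold change was -0.03 (95% interval -0.11 to 0.05). Col4a2 had 256, 253 and 284 CPM in Control and 274, 280 and 265 CPM in STZ, and its log2 fold change was 0.04 (95% interval -0.04 to 0.13). The groups overlapped for both genes, and all STZ values of Col4a2 lay inside the Control range. Col4a5 had 472, 492 and 519 CPM in Control and 478, 478 and 461 CPM in STZ. Its log2 fold change was -0.07 (95% interval -0.14 to 0.01), which passed the test with library size only (-0.10, adjusted p = 0.0197) and without Control replicate 1 (-0.10, adjusted p = 0.034). Col4a4 had 23 to 29 reads in Control and 19 to 24 in STZ, or 2.17 to 2.36 and 1.38 to 1.74 CPM. These CPM did not overlap, but the log2 fold change of -0.53 (95% interval -1.06 to -0.0045) missed the threshold (adjusted p = 0.087).

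The collagen IV genes lie in head-to-head pairs, in which a pair of genes is read outward from a common stretch of DNA. In the RefSeq annotation of GRCr8 the starts of Col4a1 and Col4a2 are 76 bases apart, those of Col4a3 and Col4a4 412 bases and those of Col4a5 and Col4a6 1414 bases. The bases between the starts of Col4a1 and Col4a2 (chr16:84885521-84885596, plus strand, on which Col4a1 is read) are shown because they serve both genes, with the match to the GC box GGGCGG, searched on both strands, in capitals.
Col4a1/Col4a2: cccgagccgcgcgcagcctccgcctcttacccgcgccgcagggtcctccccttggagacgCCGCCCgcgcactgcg
This stretch has a GC content of 78.9% and holds 1 GC box, here on the minus strand, and no match to CCAAT or TATAAA on either strand. Among the 33469 RefSeq promoters, 18.1% hold a GC box in the 76 bases before the start, 13.0% hold CCAAT and 4.61% hold TATAAA.

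The reads of Col4a1 and Col4a2 were nearly equal in every library. The ratio of their counts, which does not depend on library scaling and is not corrected for gene length, was 0.946, 0.951 and 0.923 in Control and 0.878, 0.909 and 0.888 in STZ. The ratio was lower in all 3 STZ libraries, by 0.08 on the log2 scale, with an exact two-sided permutation p of 0.1, the smallest that 3 samples against 3 allow. The other head-to-head pairs were unequal. Col4a5 had 5005 to 6904 reads per library and Col4a6 had 0 to 5. Col4a4 had 19 to 29 reads, and Col4a3 had 0, 0 and 2 in Control and 6, 3 and 5 in STZ.

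**Figure D3:**
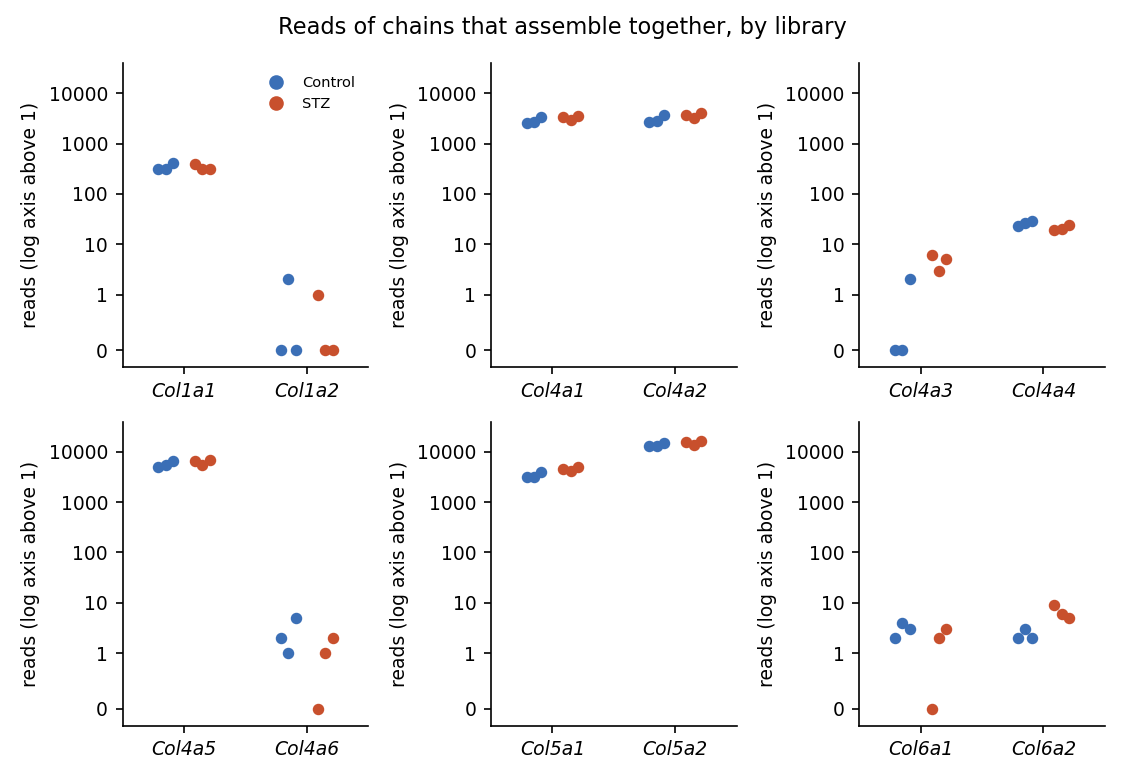
Reads of 6 pairs of chains that can assemble into one trimer, in each of the 3 Control and 3 STZ libraries, on an axis that is logarithmic above 1 read. Col4a1 and Col4a2 lie level and Col5a1 lies below Col5a2 in every library, whereas Col1a2 and Col4a6 are at or near 0 beside 307 or more reads of Col1a1 and 5005 or more of Col4a5.

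Chains of a common trimer were thus not always found together. Of the 6 pairs set for this comparison, only Col4a1/Col4a2 and Col5a1/Col5a2 had both chains tested. The ratio of Col5a1 to Col5a2 counts was 0.245, 0.240 and 0.270 in Control and 0.296, 0.306 and 0.297 in STZ. It was higher in all 3 STZ libraries, by 0.25 on the log2 scale, again with the smallest exact two-sided permutation p of 0.1, and 0.1 after adjustment over the 2 pairs. Col1a1 had 307 to 414 reads per library, whereas Col1a2, which joins it in the usual collagen I heterotrimer, had 0 in 4 of the 6 libraries, where a count of 0 allows up to 3 reads. Col6a1 had 0 to 4 reads and Col6a2 had 2 to 9, so collagen VI was barely detected.

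Of the 3 short-chain network collagens only Col8a2 was tested, and it fell. It encodes a chain of collagen VIII, which builds hexagonal lattices under endothelia and in vessel walls. It had 31.8, 28.3 and 27.0 CPM in Control and 16.5, 17.7 and 14.8 CPM in STZ. The groups were separate, with a log2 fold change of -0.83 (SE 0.09, adjusted p = 8.8e-11 by edgeR's quasi-likelihood test), between -0.89 and -0.76 with any one library left out. Its partner Col8a1 had at most 4 reads in any library.

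The promoters of Col8a2, which fell, and of Col5a2, the collagen with the most reads, which did not pass the test, are shown to set their sequences side by side. The runs end just before each gene's annotated span in GRCr8 (Col8a2 at chr5:143870519-143870753, plus strand, and Col5a2 at chr9:55090152-55090401, minus strand), and GC boxes on either strand are in capitals.
Col8a2: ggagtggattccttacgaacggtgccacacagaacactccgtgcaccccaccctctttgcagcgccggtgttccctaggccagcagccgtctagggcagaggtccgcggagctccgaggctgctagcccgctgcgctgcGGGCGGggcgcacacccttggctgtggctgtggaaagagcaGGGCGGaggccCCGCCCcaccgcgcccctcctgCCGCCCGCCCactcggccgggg
Col5a2: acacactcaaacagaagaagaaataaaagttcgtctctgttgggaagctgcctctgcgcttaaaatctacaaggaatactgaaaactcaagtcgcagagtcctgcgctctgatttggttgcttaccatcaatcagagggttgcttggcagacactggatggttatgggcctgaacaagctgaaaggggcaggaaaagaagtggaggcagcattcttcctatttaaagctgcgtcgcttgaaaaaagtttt
The Col8a2 run has a GC content of 71.9% and holds 5 GC boxes, of which 2 overlap each other, while the Col5a2 run has a GC content of 44.8% and holds none. The only other collagen stretch searched, that of Col4a1 and Col4a2, which did not pass the test, holds 1. A link between GC boxes and the fall was not tested. A GC box is found in 29.0% of all RefSeq promoters over the 235 bases of the Col8a2 window and in 30.5% over the 250 bases of the Col5a2 window. CCAAT and TATAAA were found in neither run on either strand, against 32.7% and 12.5% of promoters over the 235 bases. RefSeq promoters were matched for 31 of the 39 collagens, without Col1a1, Col2a1, Col3a1, Col6a2, Col9a3, Col12a1, Col14a1 and Col22a1.

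Col18a1, a basement membrane collagen whose tail is cleaved to endostatin, had 3.21, 2.82 and 2.73 CPM in Control and 2.25, 1.82 and 1.53 CPM in STZ, which correspond to 21 to 35 reads per library. The groups did not overlap, and the log2 fold change was -0.64 (adjusted p = 0.025 by edgeR's quasi-likelihood test). The call was lost with DESeq2 (adjusted p = 0.094) and without Control replicate 1 (adjusted p = 0.082), STZ replicate 2 (adjusted p = 0.058) or STZ replicate 3 (adjusted p = 0.13). Col6a6 had 7 to 14 reads per library and a log2 fold change of -0.10 (95% interval -0.87 to 0.68), and its span overlaps that of the abundant ribosomal protein gene Rpl29 in GRCr8. The other chains, Col6a3, Col6a5, Col7a1, Col10a1, Col15a1, Col17a1, Col23a1, Col26a1 and Col28a1, had at most 9 reads in any library, too few to test.

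Collagen reads made up 0.373% ± 0.005 of all reads in Control and 0.334% ± 0.011 in STZ (SD, n = 3 each). Within them, the fibril-associated class held 25.2% ± 0.467 in Control and 20.4% ± 0.258 in STZ, the fibrillar class 46.5% ± 0.762 and 49.6% ± 0.433, and collagen IV 27.3% ± 1.22 and 29.3% ± 0.212. As shares of all reads, which were not tested, the means of all 3 classes were lower in STZ: fibril-associated 0.0940% ± 0.0016 and 0.0680% ± 0.0014, fibrillar 0.174% ± 0.0044 and 0.166% ± 0.0069, and collagen IV 0.102% ± 0.0048 and 0.0978% ± 0.0026 (SD, n = 3 each, in Control and STZ). Summed over the 18 collagens tested, mean CPM fell by 314, and Col12a1 and Col16a1 together fell by 270.5. Long genes collect more reads, so these shares are shares of reads and not of molecules. The shares also use library totals without TMM scaling. With library size only, the median log2 fold change of all genes tested was itself -0.04, against -0.01 with TMM scaling.

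Genes that modify, export, cleave, crosslink or bind collagen were taken from a list of 49 genes in the table, of which 39 were tested. In STZ 26 of them changed, 12 up and 14 down, with a median log2 fold change of -0.02. Among all genes tested 50.9% changed, 25.9% up and 25.1% down. For 26 of the 39 the groups did not overlap, against 56.3% of all genes tested. Most changes were small, and 1 gene, Loxl4, passed the fold-change threshold.

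Of the 6 crosslinking genes tested, 4 were higher and 2 lower, where 25.9% of all genes tested were higher and 25.1% lower. The group held the largest rise of the list. Loxl4, a lysyl oxidase that starts the crosslinks between collagen chains, had 59.8, 60.5 and 60.3 CPM in Control and 153, 151 and 149 CPM in STZ. The libraries of each group lay close together and far from the other group, with a log2 fold change of 1.33 (SE 0.05, adjusted p = 5.7e-26 by edgeR's quasi-likelihood test). Its relative Loxl2, which acts on collagen IV, had 170 to 181 CPM in Control and 221 to 234 CPM in STZ (log2 fold change 0.39, adjusted p = 1.4e-10 by the same test). Of the other lysyl oxidases tested, Loxl3 was higher (log2 fold change 0.18, adjusted p = 0.0014 by the same test). Lox, which had the most reads of the family, was slightly lower (log2 fold change -0.11, adjusted p = 0.0082 by the same test). Pxdn, the peroxidase that forms the sulfilimine crosslinks of collagen IV, was lower, with 573 to 599.7 CPM in Control and 449 to 492 CPM in STZ (log2 fold change -0.31, adjusted p = 3.1e-09 by the same test).

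Among the hydroxylases that stabilise the helix or prepare it for crosslinks, and the genes listed with them, 1 of 8 prolyl hydroxylation genes was higher and 4 were lower. Of 4 lysyl hydroxylation and glycosylation genes, 2 were lower. The shares called, 62.5% and 50%, lay near the 50.9% of all genes tested. P4ha3, a catalytic subunit of prolyl 4-hydroxylase, had 168, 152 and 147 CPM in Control and 81.8, 84.3 and 76.3 CPM in STZ. All STZ libraries lay under all Control libraries, with a log2 fold change of -0.95 (SE 0.05, adjusted p = 4.3e-20 by edgeR's quasi-likelihood test). Plod2, the lysyl hydroxylase of the telopeptides, had a log2 fold change of -0.22 (adjusted p = 1.5e-06 by the same test).

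Of 9 genes for folding and export, 1 was higher and 3 were lower, a share of 44.4% against 50.9% of all genes tested. Creb3l1, a transcription factor that drives collagen secretion in bone, had 5.54 to 7.54 CPM in Control and 8.21 to 13.2 CPM in STZ (log2 fold change 0.69, adjusted p = 2e-04 by edgeR's quasi-likelihood test). Sec23a, a coat protein of the vesicles that carry procollagen, had a log2 fold change of -0.23 (adjusted p = 5.3e-05 by the same test). Of 4 genes for cleavage of the propeptides, 2 were higher, a share called of 50%, again near that of all genes. Pcolce, which enhances that cleavage, had a log2 fold change of 0.25 (adjusted p = 8.5e-08 by the same test).

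Of the 4 fibril partners tested, 2 were higher and 1 was lower, where 50.9% of all genes tested were called. Sparc, a collagen-binding matrix protein, had 1899 to 2060 CPM in Control and 2318 to 2424 CPM in STZ, a log2 fold change of 0.25 (adjusted p = 1.5e-07 by edgeR's quasi-likelihood test). Of the 4 collagen receptors and uptake genes tested, 2 were higher and 2 lower, too few to set against the 50.9% of all genes tested. Itga1, the collagen-binding integrin chain with a preference for collagen IV, had 18.3, 17.4 and 15.5 CPM in Control and 12.1, 9.21 and 8.74 CPM in STZ. Its groups were separate, with a log2 fold change of -0.76 (SE 0.11, adjusted p = 3.9e-07 by the same test).

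**Figure D4:**
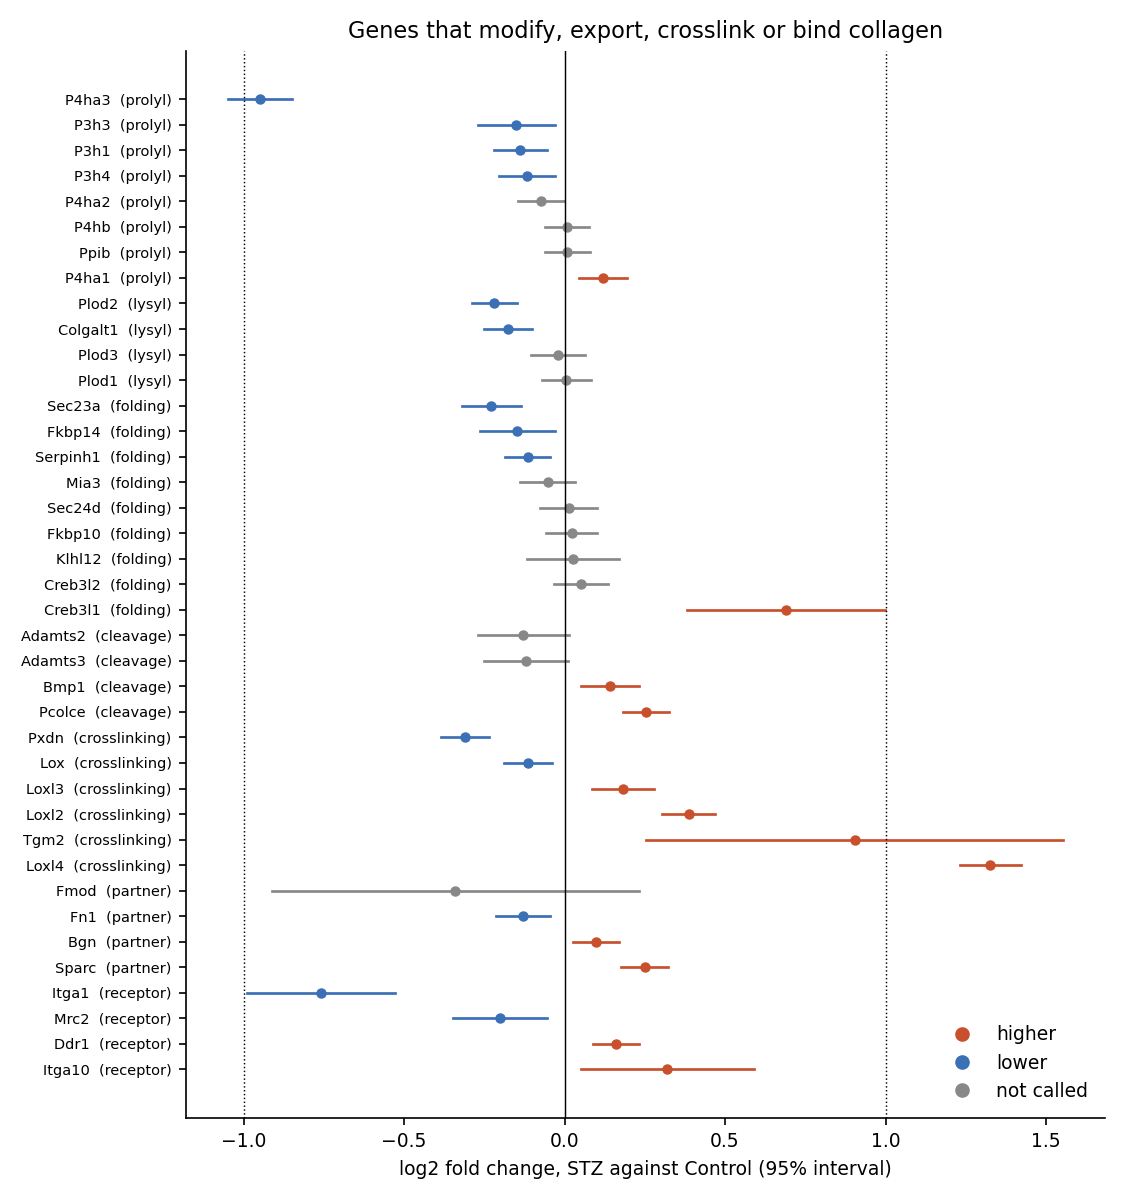
The log2 fold change (STZ against Control) of the 39 tested genes that modify, export, cleave, crosslink or bind collagen, grouped by role, with its 95% interval; the dotted lines mark an absolute log2 fold change of 1. Loxl4 lies past the right line at 1.33 and P4ha3 close to the left line at -0.95, while most genes lie near 0.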

How the data were processed

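RNA of 3 vehicle-treated and 3 STZ-treated samples was sequenced after TruSeq stranded library preparation. The authors aligned the reads with STAR 2.7.10a against Rnor6, ran featureCounts on those mapped to 1 place and deposited the raw counts of 18930 genes. Columns were assigned to samples by their labels. TMM scaling (factors 0.988 to 1.02), filterByExpr filtering (11870 genes kept) and the quasi-likelihood test with Benjamini-Hochberg adjustment were computed here on the whole table with edgeR 4.0.16 in R 4.3.3. Standard errors were taken from the log2 fold change and the square root of its F statistic, and 95% intervals used its residual and prior degrees of freedom. CPM of genes under the filter used library size only. The common biological coefficient of variation was 3.25%. Ratios of chains were compared by exact permutation. The collagens, the gene lists, the pairs and the alternatives were chosen with earlier results of these data known. Every collagen is accounted for, and of the collagen-modifying list the 5 smallest p-values in each direction are named. Lox and Loxl3 were named besides, after their values were seen. Sgca, Chrna4 and Rpl29 were named after their values were seen. The alternatives were 3 filters, 3 scalings, 4 tests (DESeq2 1.42.0, limma-voom of limma 3.58.1 and edgeR's likelihood ratio and exact tests), 2 thresholds, a replicate block and each library left out. On simulated counts for 11870 genes, the test recovered 65 of 67 genes changed by 1 and 51 of 66 changed by 0.5 on the log2 scale, and called 16 of 11670 unchanged genes. Far fewer genes were changed there than the 6046 called in the data, so these rates do not give the false calls to expect here. Totals of 10430924 to 15191349 reads per library limit the precision for genes of few reads. Promoter sequences are from RefSeq (GRCr8), a build other than that of the counts.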

Additional observations from a re-analysis of the deposited data

How the results depend on the processing

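The 9 collagens called became 7 to 10 with one library left out (higher 3 to 4, lower 4 to 6), 3 (1 higher and 2 lower) with the fold-change threshold added, and 1 (0 higher and 1 lower) with glmTreat. The 26 collagen-modifying genes called became 1 (1 higher, 0 lower) under both, and the 6046 genes called among all became 400 (268 higher, 132 lower) and 112 (92 higher, 20 lower). Both thresholds ask for larger changes by construction. Every other setting kept these counts within 1.5 times, except that 8 collagen-modifying genes in place of 14 were lower without STZ replicate 3. Of 303 refits of the collagens tested, 287 were unchanged in direction and call, 6 lost and 5 gained a call, and 5 reversed, all of them genes not called, namely Col11a2 (-0.019 without Control replicate 2 and -0.025 without STZ replicate 2, range -0.025 to 0.45), Col4a1 (0.010 without Control replicate 3, range -0.061 to 0.010) and Col6a6 (0.20 without Control replicate 1 and 0.024 without STZ replicate 1, range -0.41 to 0.20). Col4a2 was called only without Control replicate 3 (0.10, adjusted p = 0.039 by edgeR). Of 221 refits of 13 other named genes, Lox and Loxl3 not among them, 1 lost its call, for Vim. Control and STZ samples share replicate numbers. Across genes, the deviations of same-numbered samples correlated at 0.0324, -0.0378 and 0.105, and those of differently numbered samples at -0.123 to 0.0866. These values do not settle whether the samples were paired. With the replicate block 9 collagens were called, 9 of them shared with the 9 without it. Depth limits the 21 untested and the 5 tested collagens with fewer than 40 reads in every library.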
